A study of Homo sapiens with 12 samples.

Results

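Mitosis, centromere and spindle checkpoint genes were followed through 12 RNA-seq libraries of 2 human glioma cell lines. The set holds 60 genes, chosen by their symbols from a list that left out the kinesins other than CENPE, among 58302 genes in the deposited table. All 60 passed the filter on low counts, which kept 17150 genes. They were sorted by role into 13 cyclins and entry kinases, 2 transcription factors, 7 condensin and chromosome structure genes, 10 centromere and kinetochore genes, 4 genes of the chromosomal passenger complex, 6 spindle checkpoint genes, 5 partners of the anaphase-promoting complex or genes of sister chromatid separation, and 13 spindle and cytokinesis genes.

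U251 and U87 are established lines derived from human gliomas, and artesunate is a derivative of the antimalarial compound artemisinin. The groups were U251 cells given 180 µM artesunate for 24 h, U251 cells in medium alone, U87 cells given 24.08 µM artesunate for 24 h, and U87 cells in medium alone, with 3 libraries each. Every sample carries the label day 9, the controls carry the label of 10% DMEM, and no solvent control is named. Because the dose differed between the lines, line and dose cannot be told apart in any comparison of the artesunate effects. The labels do not say that replicates were separate cultures, so p-values measure the spread between these libraries, which may be technical. The extraction text names artemisinin where the treatment labels name artesunate.

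Cells enter mitosis when cyclin B with its kinase CDK1 becomes active, which the kinases WEE1 and PKMYT1 hold back and the CDC25 phosphatases release. Kinetochores built on centromeres bind spindle microtubules, and the spindle checkpoint blocks the anaphase-promoting complex until every chromosome is attached. Most transcripts of these genes build up late in the cell cycle, under activators that include FOXM1 and MYBL2 and repression by the DREAM complex, so their summed level is often read as a proliferation signature. In bulk RNA, fewer cells in mitosis and less RNA per mitotic cell cannot be told apart.

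Total counts ran between 13631985 and 17314284 per library. Replicates of a group correlated across genes with a Pearson's r of 0.972 to 0.987, lowest among the artesunate-treated U87 libraries. VIM and CD44, which glioma cells express, were high in both lines, whereas SOX2 was at 224 to 262 CPM in U251 libraries and had no count in U87 libraries. Of the other glioma or astrocyte markers, AQP4 had no count in any library, S100B stayed at or below 0.728 CPM and OLIG2 at or below 8.62 CPM. GFAP was at 46.2 to 94.8 CPM in U251 libraries and at or below 1.9 CPM in U87 libraries. NES was at 126 to 158 CPM in U251 libraries. In U87 NES was at 10.6 to 14.2 CPM with artesunate and 64 to 75.9 CPM in controls. Of 8 markers of other cell types, CD3E (T cells) and HBB (red cells) had no count in any library, and PTPRC, PECAM1, VWF and EPCAM stayed at or below 2.02 CPM. The leukocyte marker CD68 was at 22.2 to 54.1 CPM in artesunate-treated U87 libraries and 54.5 to 92.2 CPM in U87 controls, and the epithelial KRT18 at 15.4 to 21.9 CPM in artesunate-treated U251 libraries and 19.4 to 33.0 CPM in U251 controls. The part of CD68 and KRT18 in the results was not tested. CPM are read counts scaled to a common library size and by TMM factors, which adjust for library composition. Fold changes and adjusted p-values come from edgeR's quasi-likelihood test with Benjamini-Hochberg adjustment over all 17150 genes, a gene was called at an adjusted p under 0.05, and each ± after a log2 fold change is a standard error.

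The 60 genes together made up 7018, 7146 and 7068 CPM in artesunate-treated U251 libraries, against 10976, 11151 and 11239 CPM in U251 controls. In U87 the sums were 5741, 5191 and 5664 CPM with artesunate and 8080, 7974 and 7630 CPM in controls. The treated libraries were below the controls in both lines, with no overlap. Most of the summed level came from genes of the spindle and of chromosome structure, and all 8 role groups had a lower mean with artesunate in each line. In the artesunate-treated U251 libraries the transcription factors held 212, 214 and 197 CPM, against 233, 220 and 221 CPM in controls, the smallest shift of a role group in U251. The same 2 genes held 96.8, 110 and 100 CPM with artesunate in U87, against 318, 364 and 343 CPM in U87 controls.

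**Figure D1:**
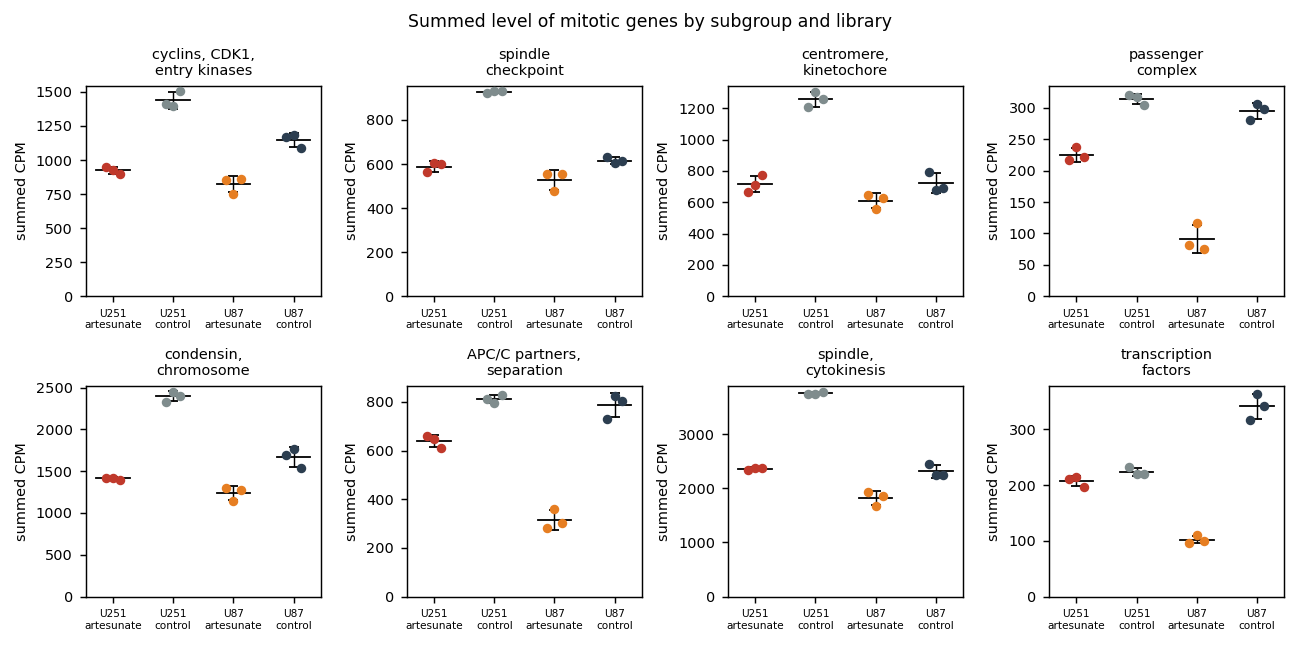
Summed CPM of each role group of mitotic genes in every library (points), with the mean and SD of 3 libraries (bars), for artesunate-treated and control U251 and U87 cells. Sums of the passenger complex in U87 averaged 90.8 CPM with artesunate and 295 CPM in controls. Sums of the checkpoint genes in U87 averaged 528 CPM with artesunate and 616 CPM in controls, without overlap. The checkpoint sums include BUB3, which rose in U87 as counted.

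Levels between genes were compared by the length-scaled fragment values (FPKM) that the authors deposited, which account for transcript length. The median of the 60 group means was 11.9 FPKM in artesunate-treated U251 cells and 19.4 FPKM in U251 controls, and 9.02 FPKM in artesunate-treated U87 cells against 15.2 FPKM in U87 controls. TOP2A, the topoisomerase that untangles sister chromatids, was at 69.0 FPKM in artesunate-treated U251 cells and 140 FPKM in U251 controls, where it was the highest of the 60. TPX2, a spindle assembly factor, was the highest in both U87 groups, at 75.1 FPKM with artesunate and 125 FPKM without. PKMYT1 was the lowest in artesunate-treated U87 cells, at 0.283 FPKM against 3.14 FPKM in U87 controls.

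Promoters were read as a description of the set, with no test. The genes did not move together in size between the lines. Pearson's r between the log2 fold changes in U251 and in U87 was -0.55 over the 60 genes. It was -0.07 after the correction for GC content and length. RefSeq (build GRCh38.p14) gave a start site for 51 of the 60 genes, the first listed being used, and the 250 bases before it were searched on both strands for TTTGAA or TTCGAA, the core of the cell cycle homology region bound by DREAM and by the MYBL2 and FOXM1 complexes, and for CCAAT, the box bound by NF-Y. A homology region lay within 100 bases of the start in 18 of the 51 promoters (35.3%), against 4.94% of all 27305 promoters in the table, and within 250 bases in 27 (52.9%, against 14.6%). A CCAAT box was found in 35 (68.6%, against 33%), and 22 (43.1%, against 10%) had at least 2. The 120 bases before the start are given for 8 genes, with both motifs in capitals on either strand: SPDL1 and HMMR, with the largest falls in U251; PLK1, CDC20 and INCENP, with large falls in U87; CCNB2 as a B-type cyclin with both motifs; and TOP2A and CCNB1, whose capitals are CCAAT boxes.
HMMR: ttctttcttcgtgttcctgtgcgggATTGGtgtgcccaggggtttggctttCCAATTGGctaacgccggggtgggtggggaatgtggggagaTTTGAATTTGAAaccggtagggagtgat
SPDL1: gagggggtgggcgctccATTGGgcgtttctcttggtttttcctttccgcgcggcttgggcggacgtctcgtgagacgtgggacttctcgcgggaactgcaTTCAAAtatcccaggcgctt
CCNB2: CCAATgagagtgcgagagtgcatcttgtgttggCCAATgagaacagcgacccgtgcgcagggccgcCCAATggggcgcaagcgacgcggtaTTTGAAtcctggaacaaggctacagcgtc
PLK1: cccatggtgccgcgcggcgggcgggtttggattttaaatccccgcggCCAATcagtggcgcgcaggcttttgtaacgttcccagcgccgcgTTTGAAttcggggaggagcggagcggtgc
CDC20: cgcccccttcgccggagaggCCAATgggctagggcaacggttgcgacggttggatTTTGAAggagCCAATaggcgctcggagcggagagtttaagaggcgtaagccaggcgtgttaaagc
INCENP: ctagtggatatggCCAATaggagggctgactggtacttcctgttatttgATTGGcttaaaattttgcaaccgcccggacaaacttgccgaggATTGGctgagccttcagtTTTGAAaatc
TOP2A: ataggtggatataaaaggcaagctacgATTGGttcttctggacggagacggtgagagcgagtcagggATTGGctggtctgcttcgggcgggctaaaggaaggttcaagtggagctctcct
CCNB1: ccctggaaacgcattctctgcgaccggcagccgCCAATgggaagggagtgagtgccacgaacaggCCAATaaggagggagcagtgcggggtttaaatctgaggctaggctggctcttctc
These stretches lie at chr5:163460512-163460631 (plus strand), chr5:169583653-169583772 (plus strand), chr15:59105026-59105145 (plus strand), chr16:23678769-23678888 (plus strand), chr1:43358861-43358980 (plus strand), chr11:62123891-62124010 (plus strand), chr17:40417897-40418016 (minus strand) and chr5:69167030-69167149 (plus strand), in that order. HMMR carries a doubled homology region 28 and 22 bases before its start, and its CCAATTGG holds 2 overlapping boxes on opposite strands. In CDC20 the homology region lies 65 bases before the start, between boxes at 100 and 55 bases. Among the 51 promoters, the 18 with a homology region within 100 bases had a median log2 fold change of -0.62 in U251 and -1.01 in U87, and the 33 without had -0.67 in U251 and -0.31 in U87. The 18 were also richer in GC, with a median transcript GC content of 47.9% against 41.1%, and after a correction of the libraries for GC content and transcript length, described further on, the U87 medians were -1.25 with the region and -0.91 without. A match describes letters, not a bound site. The 8 printed promoters were picked by hand and each carries a motif, so they do not link motifs to large falls. MYBL2 (-2.52 in U87) and CENPE (-1.06 in U251) had neither motif in the 250 bases.

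Artesunate against control in U251 asked how the mitotic genes of this line responded to the higher dose. Of the 60 genes 45 fell, none rose and 15 were not called, beside 4.26% of all tested genes called lower and 4.09% called higher. By edgeR 0 genes were higher even at an unadjusted p under 0.05, and DESeq2 also called 0 higher. The median log2 fold change was -0.65, against a median near 0 over all tested genes, and the middle of the distribution was narrow, with quartiles of -0.77 and -0.46. CPM of the groups did not overlap, with artesunate lower, for 55 of the 60 genes, beside 18.4% of all tested genes. The falls were moderate, since 6 genes were at least 2-fold lower on the fitted scale: SPDL1, HMMR, CENPE, ASPM, CCNB1 and DLGAP5. How many of all tested genes were at least 2-fold lower was not counted.

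Artesunate against control in U87 asked the same of the lower dose. Here 37 genes fell, 1 rose and 22 were not called, beside 29.2% of all tested genes called lower and 29.2% called higher. The median log2 fold change was -0.55, and the genes were spread far wider than in U251, between -3.42 for PKMYT1 and 0.28 for SGO1, with an SD of 0.79 across genes against 0.27 in U251. CPM of the groups did not overlap for 39 genes with artesunate lower and for 1 gene with artesunate higher, beside 31.2% of all tested genes in each direction. At least 2-fold lower were 16 genes, from PKMYT1, MYBL2, INCENP and CDC20 to TACC3.

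**Figure D2:**
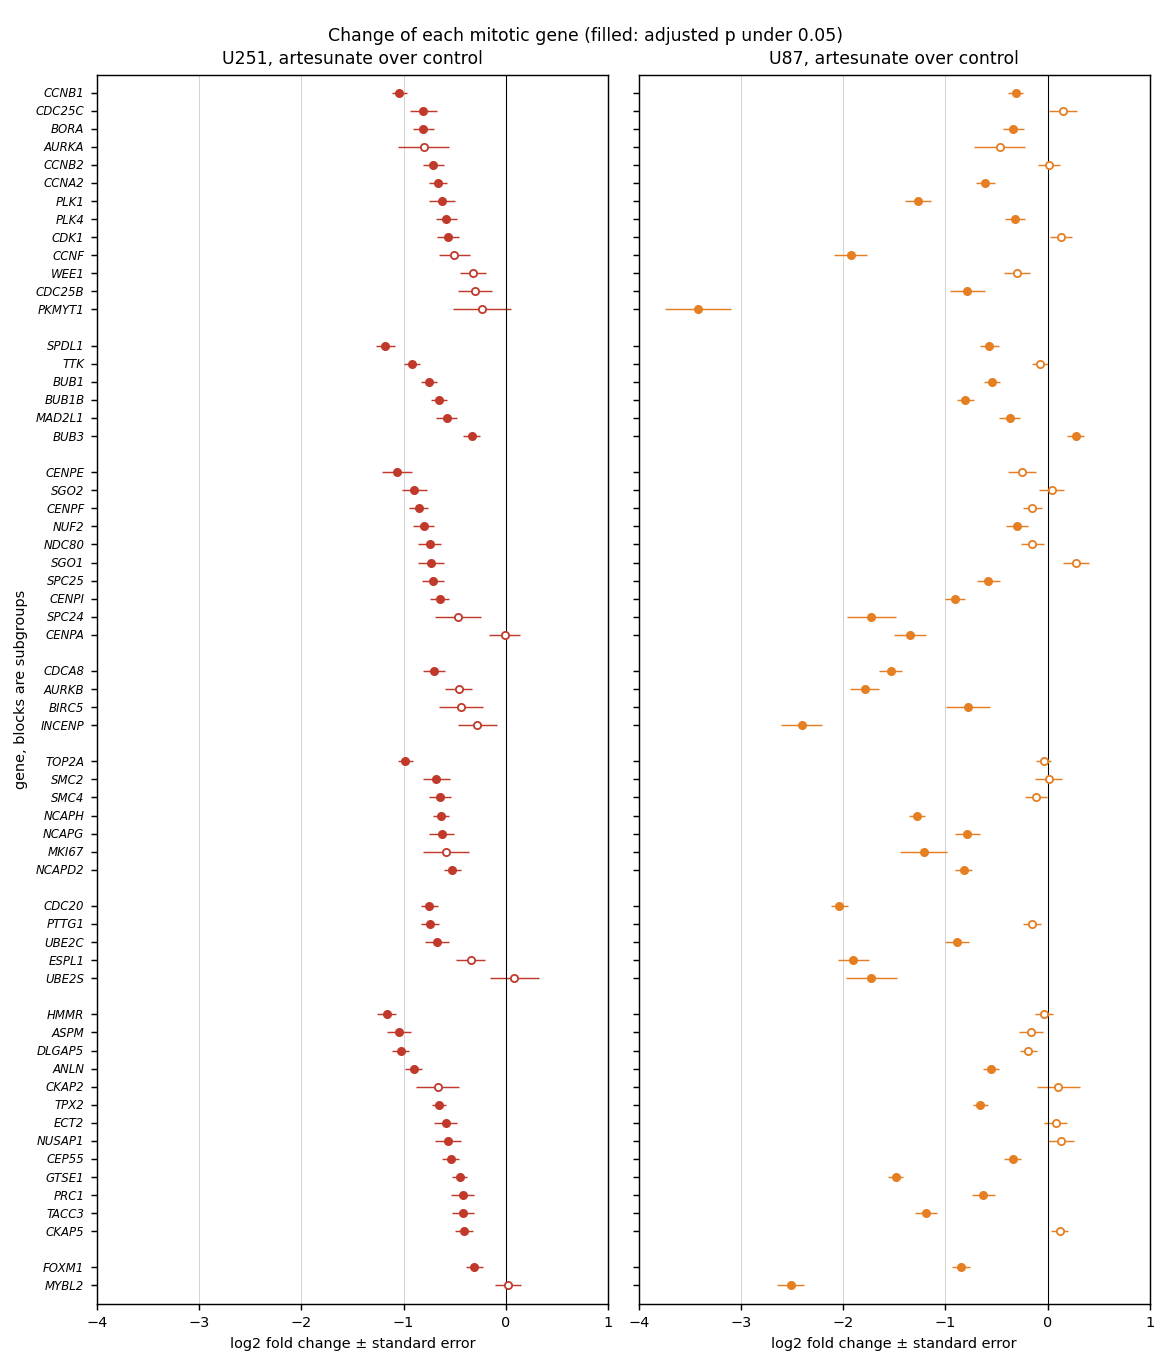
Log2 fold change of each of the 60 genes, artesunate over control, with its standard error, in U251 (left) and U87 (right), in blocks by role. Filled points have an adjusted p under 0.05 (45 in U251 and 38 in U87); the U251 points crowd between -1.18 and 0.08, while the U87 points reach -3.42.

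Among the cyclins, CDK1 and entry kinases, 8 of 13 fell in U251 and 8 of 13 fell in U87. CCNB1, the cyclin that drives entry, was at 122, 122 and 122 CPM in artesunate-treated U251 libraries and at 252, 247 and 254 CPM in U251 controls. The U87 libraries held 166, 146 and 172 CPM with artesunate and 214, 194 and 194 CPM without. Neither line had overlapping groups, and the log2 fold change was -1.04 ± 0.08 (adjusted p = 1.9e-05) in U251 and -0.31 ± 0.08 (adjusted p = 0.0039) in U87. CDK1, its kinase partner, averaged 165 ± 2.73 CPM with artesunate in U251, against 244 ± 6.01 CPM in controls (SD, n = 3 each), without overlap, a log2 fold change of -0.56 ± 0.11 (adjusted p = 0.008). In U87 CDK1 was at 167, 131 and 157 CPM with artesunate and 159, 133 and 124 CPM in controls, which overlapped (0.13 ± 0.11, adjusted p = 0.32). The sister cyclin CCNB2 likewise fell in U251 (-0.71 ± 0.11, adjusted p = 0.0021), with a log2 fold change of 0.01 ± 0.10 (adjusted p = 0.95) in U87, whereas CCNA2, cyclin A, fell in both lines (-0.66 in U251 and -0.61 in U87). With libraries corrected for GC content and length, CCNB2 was called lower in U87 as well (-0.38, adjusted p = 0.00036).

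PKMYT1, the membrane-bound kinase that holds CDK1 inactive, stood apart in U87. It was at 1.68, 6.06 and 2.56 CPM in artesunate-treated U87 libraries and at 32.9, 41.2 and 36 CPM in U87 controls. That is 10.7-fold lower on the fitted scale, with a log2 fold change of -3.42 ± 0.33 (adjusted p = 4.7e-06). Corrected for GC content and length it was -1.88. In U251 it was at 33.4, 33.7 and 29.7 CPM with artesunate and 39, 34 and 40.6 CPM without. These groups did not overlap, but PKMYT1 was not called there (adjusted p = 0.68). Corrected for GC content and length, it was a called fall in U251 (-0.55, adjusted p = 0.031). WEE1, its nuclear counterpart, was at 72.5, 58.6 and 63.1 CPM with artesunate and 91.6, 75.8 and 75 CPM in U251 controls. In U87 WEE1 was at 44.6, 50.6 and 53.1 CPM with artesunate and 59.4, 69.3 and 53.4 CPM in controls, and it passed in neither line as counted (adjusted p = 0.15 in U251 and 0.064 in U87). The GC and length correction made WEE1 a called fall in U87 (-1.08, adjusted p = 0.00016). CCNF, an F-box cyclin that acts in protein turnover, fell in U87 by 1.93 ± 0.16 (adjusted p = 2e-06), against -0.50 ± 0.15 (adjusted p = 0.066) in U251.

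PLK1, the kinase that promotes entry, centrosome maturation and cytokinesis, was at 77.8, 80.6 and 76.2 CPM with artesunate and 122, 118 and 122 CPM in U251 controls. U87 libraries had 55, 79 and 53 CPM with artesunate and 144, 155 and 151 CPM in controls. It fell in both lines, by 0.62 ± 0.13 in U251 (adjusted p = 0.013) and by 1.27 ± 0.13 in U87 (adjusted p = 7.4e-06). BORA, which helps AURKA to activate PLK1, fell by 0.81 ± 0.11 in U251 (adjusted p = 0.0011) and by 0.34 ± 0.10 in U87 (adjusted p = 0.015). AURKA itself, a centrosomal kinase, was not called by edgeR in either line as counted. The GC and length correction made AURKA a called fall in U87 (-0.73, adjusted p = 0.032). It was at 98, 67.4 and 55 CPM with artesunate and 113, 105 and 167 CPM in U251 controls, and at 90, 79 and 118 CPM with artesunate and 125, 165 and 106 CPM in U87 controls. Its log2 fold change was -0.80 ± 0.25 in U251 (adjusted p = 0.074, and called without artesunate replicate 1, adjusted p = 0.045). DESeq2 called that fall (adjusted p = 0.02), as did limma on log2(FPKM + 1) (adjusted p = 0.047). The phosphatases CDC25B and CDC25C release CDK1. CDC25C fell in U251 (-0.81 ± 0.13, adjusted p = 0.0039) with 0.15 ± 0.14 (adjusted p = 0.37) in U87, and CDC25B fell in U87 (-0.79 ± 0.17, adjusted p = 0.0018, but 0.16 and not called after the GC and length correction) with -0.30 ± 0.17 (adjusted p = 0.3) in U251. Between the lines the effect on CDC25C differed (U251 minus U87 -0.96 ± 0.19, adjusted p = 0.0015), and that on CDC25B was not called as different (0.48 ± 0.24, adjusted p = 0.11).

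Of the transcription factors, MYBL2 gave the widest contrast between the lines. In U251 MYBL2 was at 131, 136 and 118 CPM with artesunate and 126, 126 and 127 CPM in controls, a log2 fold change of 0.02 ± 0.13 (adjusted p = 0.96). Its level in U87 was 34.1, 50 and 36.4 CPM with artesunate and 215, 243 and 230 CPM in controls, a log2 fold change of -2.52 ± 0.13 (adjusted p = 8e-08), or 5.72-fold lower on the fitted scale. Corrected for GC content and length it was -1.50. FOXM1 was at 80.3, 78.4 and 79.3 CPM with artesunate and 107, 94.1 and 93.7 CPM in U251 controls. U87 cells had 62.8, 60.1 and 63.8 CPM with artesunate and 103, 121 and 112 CPM in controls. The FOXM1 groups did not overlap in either line, with log2 fold changes of -0.31 ± 0.08 (adjusted p = 0.044) in U251 and -0.85 ± 0.08 (adjusted p = 6.1e-06) in U87.

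**Figure D3:**
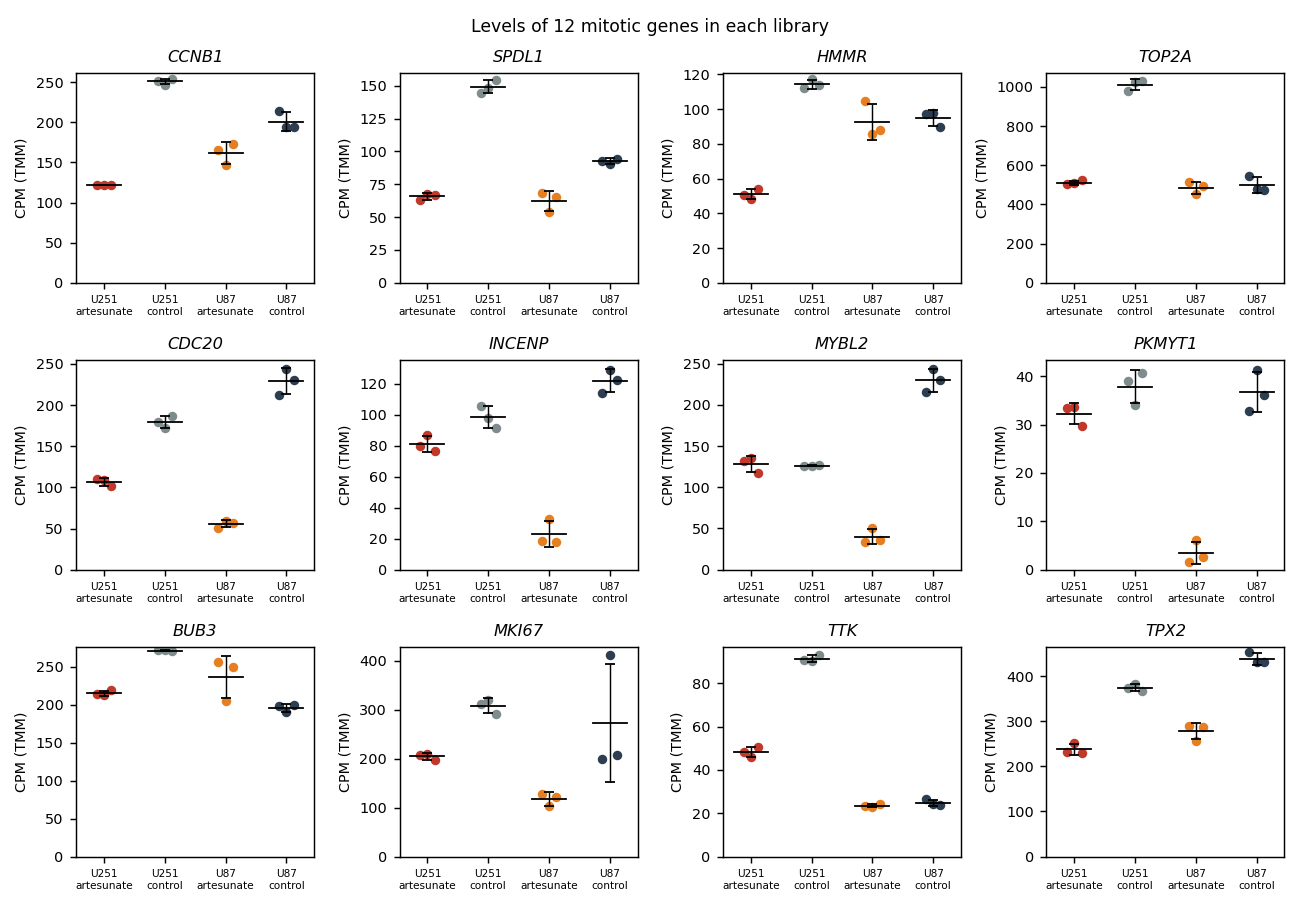
CPM of 12 mitotic genes in every library (points), with the mean and SD of 3 libraries (bars). TTK, HMMR and TOP2A separate artesunate from control in U251 and overlap in U87, whereas MYBL2 and PKMYT1 drop in U87 and are not called in U251 as counted.

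Condensin and chromosome structure genes fell in U251 for 6 of 7, and in U87 for 4 of 7. TOP2A was at 502, 507 and 523 CPM with artesunate and 977, 1027 and 1028 CPM in U251 controls, a log2 fold change of -0.98 ± 0.07 (adjusted p = 1.9e-05). In U87 it was at 512, 451 and 493 CPM with artesunate and 543, 478 and 475 CPM in controls, which overlapped (-0.04 ± 0.07, adjusted p = 0.69). The condensin subunits fell in U251 by sizes close to each other, between -0.68 for SMC2 and -0.53 for NCAPD2. In U87 the 2 ATPase subunits, SMC2 and SMC4, did not pass (0.01 and -0.11, adjusted p = 0.97 and 0.39), while the regulatory subunits did. With libraries corrected for GC content and length, both ATPase subunits were called falls there too, at -0.80 and -0.92 (adjusted p = 6e-06 and 6.6e-06). NCAPH, the subunit that bridges the ATPases of condensin I, was at 31.7, 30.2 and 33.4 CPM with artesunate in U87 and at 77.6, 74.4 and 79.8 CPM in controls. NCAPH fell by 1.28 ± 0.08 there (adjusted p = 2e-07), against 0.63 ± 0.08 in U251 (adjusted p = 0.00058). NCAPG and NCAPD2 fell in U87 by 0.79 ± 0.12 and 0.82 ± 0.08 (adjusted p = 0.0002 and 7.2e-06). SMC4 in U251 was at 281, 274 and 258 CPM with artesunate and 408, 435 and 427 CPM without.

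MKI67, the proliferation marker that coats mitotic chromosomes, was at 208, 210 and 197 CPM with artesunate and 313, 321 and 292 CPM in U251 controls. Although these groups did not overlap, it was not called in U251 (adjusted p = 0.14). The U87 values were 129, 102 and 122 CPM with artesunate and 199, 413 and 207 CPM in controls. Control replicate 2 of U87 held about as much MKI67 as both other controls together, and without it the U251 difference was called (adjusted p = 0.0035). MKI67 fell in U87 (adjusted p = 0.00071).

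Centromere and kinetochore genes fell for 8 of 10 in U251 and for 5 of 10 in U87. In U251 they included the motor CENPE, the outer kinetochore protein CENPF, the NDC80 complex subunits NDC80, NUF2 and SPC25, and the cohesin guardians SGO1 and SGO2. CENPE was at 55.7, 58.7 and 77.7 CPM with artesunate and 125, 139 and 138 CPM in U251 controls (-1.06 ± 0.14, adjusted p = 0.0012). CENPF was at 323, 348 and 387 CPM with artesunate and 619, 665 and 624 CPM in U251 controls (-0.85 ± 0.09, adjusted p = 0.00026). Neither passed in U87 as counted, where CENPE was at 87.8, 85.8 and 83.1 CPM with artesunate and 122, 95.7 and 87.4 CPM in controls, and CENPF at 302, 254 and 297 CPM with artesunate and 338, 301 and 306 CPM in controls. Corrected for GC content and length, both were called lower in U87. CENPE was then at -1.14 (adjusted p = 2.9e-06) and CENPF at -0.85 (adjusted p = 2.5e-07).

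The NDC80 complex, which binds microtubules at the outer kinetochore, has 4 subunits. NDC80 was at 52.7, 52.2 and 58.7 CPM with artesunate and 90.5, 92.4 and 91 CPM in U251 controls, and its log2 fold changes were -0.74 ± 0.11 in U251 (adjusted p = 0.0025) and -0.15 ± 0.11 in U87 (adjusted p = 0.28). NUF2 fell by 0.80 ± 0.11 in U251 (adjusted p = 0.00098) and by 0.30 ± 0.11 in U87 (adjusted p = 0.031). SPC25 fell by 0.71 and 0.58. SPC24 was not called in U251 (-0.47 ± 0.23, adjusted p = 0.24) and fell by 1.72 ± 0.24 in U87 (adjusted p = 7.6e-05). After the GC and length correction the log2 fold changes of NDC80, NUF2, SPC25 and SPC24 were -0.53, -0.57, -0.49 and -0.55 in U251 and -0.83, -1.05, -1.28 and -1.45 in U87, with all but SPC24 in U251 called. CENPA, the histone variant that marks the centromere, was at 20.8, 20.7 and 15.8 CPM with artesunate and 18.5, 19.5 and 19.7 CPM in U251 controls, which overlapped (-0.01 ± 0.15, adjusted p = 1.0). In U87 CENPA was at 7.07, 8.47 and 5.77 CPM with artesunate and 16.9, 19 and 18.3 CPM in controls, a log2 fold change of -1.35 ± 0.16 (adjusted p = 2e-05). CENPI, of the inner kinetochore, fell in both lines, by 0.65 ± 0.09 in U251 (adjusted p = 0.0016) and by 0.91 ± 0.09 in U87 (adjusted p = 8.4e-06). The NUF2 call in U87 was lost without control replicate 1, control replicate 2 or artesunate replicate 2 of U87, with an adjusted p of up to 0.081.

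All 4 genes of the chromosomal passenger complex, which corrects faulty attachments, fell in U87, and 1 of 4 fell in U251. INCENP, the scaffold, was at 18.5, 32.9 and 17.6 CPM with artesunate and 114, 129 and 123 CPM in U87 controls, 5.31-fold lower on the fitted scale (-2.41 ± 0.20, adjusted p = 1.7e-06, with -1.53 once corrected for GC content and length). In U251 INCENP was at 79.7, 86.8 and 76.6 CPM with artesunate and 105, 97.7 and 91.3 CPM in controls (-0.28 ± 0.19, adjusted p = 0.41). AURKB, the kinase, was at 10.3, 12.3 and 14.7 CPM with artesunate and 36.1, 44.4 and 48.8 CPM in U87 controls (-1.79 ± 0.14, adjusted p = 1.2e-06). AURKB in U251 was just short of a call, at 38.2, 40.3 and 41.6 CPM with artesunate and 54.1, 55.4 and 55.8 CPM in controls (-0.46 ± 0.13, adjusted p = 0.056). CDCA8, borealin, fell in both lines, by 0.70 ± 0.11 in U251 (adjusted p = 0.0026) and by 1.53 ± 0.11 in U87 (adjusted p = 6.8e-07). BIRC5, survivin, was at 26.1, 35.4 and 15.9 CPM with artesunate and 48.6, 42.9 and 41.1 CPM in U87 controls, which gave -0.78 ± 0.21 on the log2 scale (adjusted p = 0.0083), and at 30.2, 34.3 and 29.1 CPM with artesunate and 42.5, 42.3 and 42 CPM in U251 controls (adjusted p = 0.24). The AURKB difference in U251 was called when control replicate 1 or any artesunate replicate of U87 was left out (lowest adjusted p = 0.032), and that of INCENP without artesunate replicate 2 of U87 (adjusted p = 0.037), since all groups share 1 estimate of the spread.

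The spindle checkpoint was the role group in which all members fell in U251, 6 of 6. In U87 4 fell, TTK was not called and BUB3 rose. SPDL1, which recruits dynein to kinetochores, was at 62.9, 67.9 and 67 CPM with artesunate and 145, 148 and 154 CPM in U251 controls, the largest fall of the 60 in that line (-1.18 ± 0.09, adjusted p = 2.3e-05). In U87 it was at 68.3, 53.8 and 65.2 CPM with artesunate and 92.9, 90.4 and 94.5 CPM in controls (-0.57 ± 0.09, adjusted p = 0.00022). TTK, the kinase that starts checkpoint signalling, was at 48.1, 46.2 and 50.5 CPM with artesunate and 90.6, 90.4 and 93.3 CPM in U251 controls (-0.92 ± 0.08, adjusted p = 3.9e-05). In U87 TTK was low in all libraries, at 23.2, 22.9 and 24.3 CPM with artesunate and 26.5, 24 and 23.6 CPM in controls, and the groups overlapped (adjusted p = 0.44).

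BUB1, a kinase that docks checkpoint proteins at kinetochores, was at 98.4, 116 and 105 CPM with artesunate and 177, 178 and 185 CPM in U251 controls, and fell in both lines (-0.75 ± 0.08 in U251, adjusted p = 0.00019, and -0.55 ± 0.08 in U87, adjusted p = 9.2e-05). BUB1B, the BUBR1 subunit of the inhibitory complex, was at 48.3, 46.9 and 49.8 CPM with artesunate and 86.3, 85.9 and 81 CPM in U87 controls (-0.80 ± 0.08, adjusted p = 7.9e-06), and fell by 0.65 in U251. MAD2L1, which encodes MAD2 and captures CDC20, fell by 0.58 ± 0.10 in U251 (adjusted p = 0.0047) and by 0.37 ± 0.10 in U87 (adjusted p = 0.007). BUB3, the adaptor that carries BUB1 and BUBR1, moved in opposite directions. It was at 214, 212 and 219 CPM with artesunate and 272, 271 and 270 CPM in U251 controls (-0.34 ± 0.08, adjusted p = 0.03). In U87 it was at 256, 204 and 249 CPM with artesunate and 198, 190 and 199 CPM in controls (0.27 ± 0.08, adjusted p = 0.013). The rise of BUB3 in U87 was lost without artesunate replicate 1 or 3 of U87 (adjusted p up to 0.058), and its log2 fold change was -0.39 after a correction for GC content and length. Its fall in U251 was lost without any 1 of the 6 U251 libraries (adjusted p up to 0.091).

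Of the genes that act with the anaphase-promoting complex or at sister separation, 3 of 5 fell in U251 and 4 of 5 in U87. CDC20, the activator that the checkpoint blocks, was at 110, 109 and 101 CPM with artesunate and 179, 172 and 187 CPM in U251 controls (-0.75 ± 0.08, adjusted p = 0.00032). In U87 it was at 51.2, 59.2 and 57.1 CPM with artesunate and 213, 244 and 230 CPM in controls, 4.1-fold lower on the fitted scale (-2.04 ± 0.09, adjusted p = 1.9e-08, with -1.33 once corrected). UBE2C, the ubiquitin-conjugating enzyme that starts chains, fell in both lines, at 71.2, 78.7 and 70.5 CPM with artesunate against 121, 130 and 101 CPM in U251 controls, and 72.8, 88.2 and 73.6 CPM with artesunate against 131, 151 and 152 CPM in U87 controls. Its log2 fold changes were -0.67 ± 0.11 (adjusted p = 0.0046) and -0.89 ± 0.11 (adjusted p = 4.4e-05). UBE2S, which extends the chains, was at 331, 315 and 292 CPM with artesunate and 294, 275 and 316 CPM in U251 controls, which overlapped, and at 38.5, 97.6 and 62.8 CPM with artesunate and 191, 246 and 221 CPM in U87 controls (-1.73 ± 0.25, adjusted p = 0.0001). ESPL1, separase, fell in U87 by 1.90 ± 0.15 (adjusted p = 1.1e-06) and was not called in U251 (adjusted p = 0.17). PTTG1, its inhibitor securin, went the other way round as counted: it fell in U251 (-0.74 ± 0.09, adjusted p = 0.00057) and was not called in U87 (-0.16 ± 0.09, adjusted p = 0.15). After the GC and length correction both genes were called lower in both lines. ESPL1 was then at -0.56 in U251 (adjusted p = 0.0025) and PTTG1 at -0.23 in U87 (adjusted p = 0.03). PTTG1 was at 86.8, 82.6 and 88.1 CPM with artesunate and 145, 142 and 145 CPM in U251 controls, and at 93.8, 80.3 and 88.6 CPM with artesunate and 105, 86.7 and 101 CPM in U87 controls.

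Spindle and cytokinesis genes fell for 12 of 13 in U251 and for 6 of 13 in U87. HMMR, a microtubule-associated hyaluronan receptor, was at 50.7, 48.4 and 54.1 CPM with artesunate and 112, 117 and 114 CPM in U251 controls, 2.24-fold lower on the fitted scale (-1.16 ± 0.09, adjusted p = 2.4e-05). In U87 it was at 105, 85.5 and 87.8 CPM with artesunate and 97.5, 97.6 and 89.9 CPM in controls, which overlapped (-0.04 ± 0.09, adjusted p = 0.77). ASPM, a spindle pole protein, followed the same pattern as counted, at 179, 183 and 229 CPM with artesunate and 374, 409 and 437 CPM in U251 controls (-1.05 ± 0.12, adjusted p = 0.00045), and with -0.16 ± 0.12 (adjusted p = 0.27) in U87. Corrected for GC content and length, ASPM was called lower in U87 too (-1.02, adjusted p = 8.2e-07). DLGAP5, which stabilises kinetochore fibres, fell by 1.03 ± 0.08 in U251 (adjusted p = 2.7e-05), with -0.19 ± 0.08 (adjusted p = 0.065) in U87. ECT2, the exchange factor that starts the cleavage furrow, fell by 0.59 ± 0.11 in U251 (adjusted p = 0.0089), with 0.08 ± 0.11 (adjusted p = 0.57) in U87.

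TPX2 and ANLN fell in both lines. TPX2, which activates AURKA on the spindle, was at 231, 252 and 230 CPM with artesunate and 373, 382 and 367 CPM in U251 controls, and at 289, 257 and 288 CPM with artesunate and 453, 430 and 431 CPM in U87 controls. Its log2 fold changes were -0.65 ± 0.07 in U251 (adjusted p = 0.00026) and -0.66 ± 0.07 in U87 (adjusted p = 1e-05). Corrected for GC content and length they were -0.60 and -0.88, and their difference was called (0.28, adjusted p = 0.012). ANLN, anillin of the contractile ring, was at 362, 390 and 375 CPM with artesunate and 704, 691 and 714 CPM in U251 controls (-0.90 ± 0.08, adjusted p = 4.6e-05), and fell by 0.55 ± 0.08 in U87 (adjusted p = 8.8e-05). GTSE1, a microtubule plus-end protein, was at 47.3, 53.4 and 50.1 CPM with artesunate and 137, 146 and 140 CPM in U87 controls, the largest fall of this role group there (-1.49 ± 0.07, adjusted p = 6.2e-08), against -0.45 ± 0.07 (adjusted p = 0.0033) in U251. CKAP5, a microtubule polymerase, had the smallest called fall of the role group in U251, at 403, 379 and 348 CPM with artesunate and 492, 515 and 493 CPM in controls (-0.41 ± 0.09, adjusted p = 0.015). In U87 CKAP5 was at 369, 297 and 327 CPM with artesunate and 301, 297 and 317 CPM in controls, and was not called (0.12 ± 0.09, adjusted p = 0.26). CKAP2, which binds spindle microtubules, was called in neither line. In U251 its control replicate 2 was at 93.7 CPM, beside 167 and 160 CPM in the other controls and 81.6, 88.2 and 95.3 CPM with artesunate, and without that library the fall was called (adjusted p = 0.017).

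In all, 7 calls in U251 depended on single libraries, BUB3 included. FOXM1 was called in 4 of the 12 fits that each left out 1 library, and was lost without any of the 6 U251 libraries, U87 control replicate 3 or U87 artesunate replicate 3 (adjusted p up to 0.17). TACC3, which stabilises spindle fibres, was also called in 4, and lost without any of the 6 U251 libraries or U87 control replicates 2 and 3 (up to 0.13). PRC1, the bundler of the midzone, was called in 4 too, and lost without U251 control replicates 1 and 2, any U251 artesunate replicate, U87 control replicates 2 and 3 or U87 artesunate replicate 3 (up to 0.14). NUSAP1, another spindle protein, was lost without U251 control replicates 2 and 3 or any U251 artesunate replicate (up to 0.079), CKAP5 without U251 control replicate 2 or artesunate replicate 3 (up to 0.052), and PLK1 without U251 control replicate 1 or artesunate replicate 1 (up to 0.057). Other genes gained a call without 1 library: CCNF and ESPL1 in U251 without U87 artesunate replicate 2 (adjusted p = 0.0039 and 0.0085), and in U87 PTTG1 without control replicate 2 (0.036), SGO1, with artesunate higher, without control replicate 1 or artesunate replicate 2 (lowest 0.041), DLGAP5 without control replicate 3 or artesunate replicate 1 of U87 or control replicate 1 of U251 (lowest 0.03), and WEE1 without control replicate 3 of U87 or control replicate 1 of U251 (lowest 0.029).

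Across both lines, 25 genes fell in each, beside 1.35% of all tested genes. They include CCNB1, CCNA2, PLK1, PLK4, BUB1, BUB1B, MAD2L1, SPDL1, NUF2, SPC25, CENPI, CDCA8, NCAPH, NCAPG, NCAPD2, CDC20, UBE2C, TPX2, ANLN and FOXM1. A further 19 were called lower in U251 and not called in U87, among them CDK1, CCNB2, TOP2A, TTK, CENPE and HMMR, and 12 were called lower in U87 and not called in U251, among them PKMYT1, MYBL2, INCENP, AURKB and CENPA. BUB3 was called in opposite directions, and AURKA, WEE1 and CKAP2 were called in neither line. The classes differed in base composition: the median transcript GC content was 39.1% for the 19 genes, 43.2% for the 25 and 56.3% for the 12.

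Fold changes of the 60 genes followed GC content in both lines, in opposite directions. Pearson's r between the log2 fold change and the GC content of the longest transcript was 0.62 in U251 and -0.84 in U87 over the 60 genes, and 0.29 and -0.58 over 17089 tested genes, points that share the same libraries. Measured against the control mean of the same line, which sets the controls around 0, the median log2 level of the most GC-rich class of genes minus that of the most GC-poor class was 0.42, 0.42 and 0.20 in the artesunate-treated U251 libraries and -1.74, -1.08 and -1.63 in the artesunate-treated U87 libraries, with controls between -0.19 and 0.13. Tested genes were then split into 4 classes of equal size by GC content, and in each class the median of the mitotic genes was below that of all genes. The median of the mitotic genes minus that of all genes of the same class was -0.56, -0.59, -0.51 and -0.55 from the lowest to the highest GC class in U251, and -0.83, -0.82, -0.73 and -0.87 in U87.

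**Figure D4:**
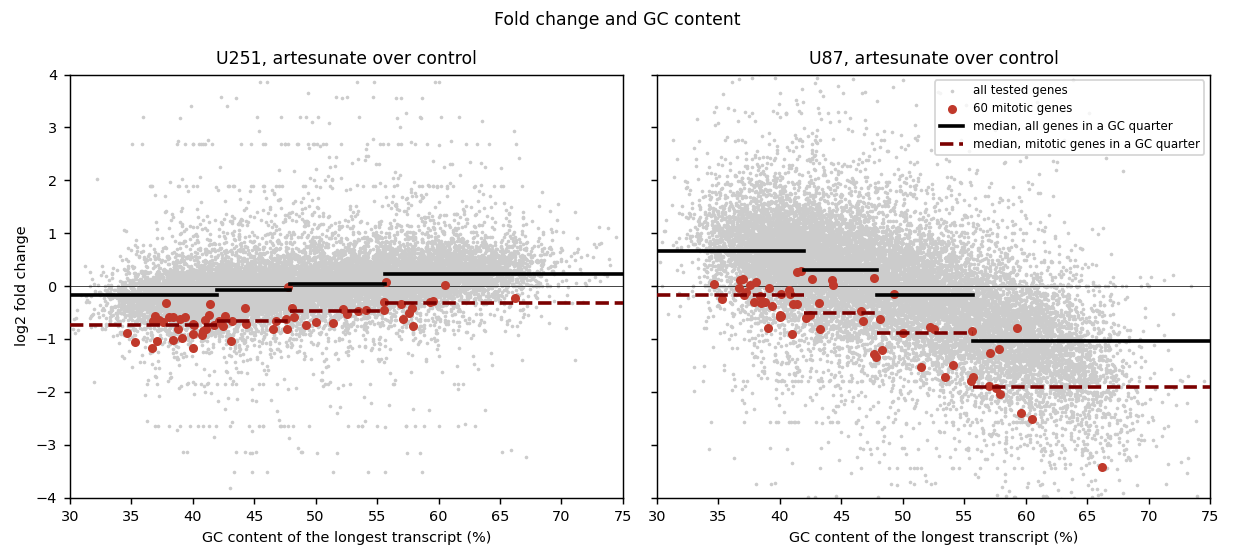
Log2 fold change of artesunate over control against the GC content of the longest transcript, for all tested genes (grey) and the 60 mitotic genes (red), in U251 and U87; genes beyond the axes are not drawn. Horizontal lines are medians in 4 classes of equal size by GC content, and in each class the median of the mitotic genes (dashed) lies below that of all genes (solid), with differences of -0.51 to -0.59 in U251 and -0.73 to -0.87 in U87.

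A correction of each library for GC content and transcript length changed which genes were called. In U251 51 genes then fell and none rose (4.32% of all tested genes called lower and 5.07% higher), with a median of -0.56. In U87 57 fell and none rose (25.2% called lower and 20.4% higher), with a median of -0.92, and the genes that did not pass were SGO1, CDC25B and CDC25C. At an unadjusted p under 0.05, 0 genes were higher in either line by edgeR. By role, 13 of 13 spindle and cytokinesis genes, 6 of 6 checkpoint genes, 7 of 7 condensin and chromosome structure genes and 9 of 10 centromere and kinetochore genes then fell in U87, and 3 of 4 passenger complex genes fell in U251. The spread across genes narrowed to an SD of 0.21 in U251 and 0.42 in U87. Lower in both lines were then 49 genes, beside 2.79% of all tested genes. The large falls in U87 became smaller, with PKMYT1 at -1.88 (adjusted p = 3.6e-06), MYBL2 at -1.50 (adjusted p = 2.9e-09), INCENP at -1.53 (adjusted p = 7.1e-07) and CDC20 at -1.33 (adjusted p = 2.4e-08). Of the genes without a call in U87, several became called falls, with HMMR at -0.82 (adjusted p = 6.7e-06), TOP2A at -0.79 (adjusted p = 1.2e-07), TTK at -0.69 (adjusted p = 1.1e-05) and CDK1 at -0.69 (adjusted p = 1.1e-05). In U251 INCENP (-0.50, adjusted p = 0.011), AURKB (-0.56, adjusted p = 0.012), PKMYT1 (-0.55, adjusted p = 0.031) and MYBL2 (-0.19, adjusted p = 0.025) became called falls, while CENPA (0.06, adjusted p = 0.91) and UBE2S (-0.04, adjusted p = 0.97) did not. The source of the GC trend, in the RNA of the treated cells or in the libraries, was not tested.

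**Figure D5:**
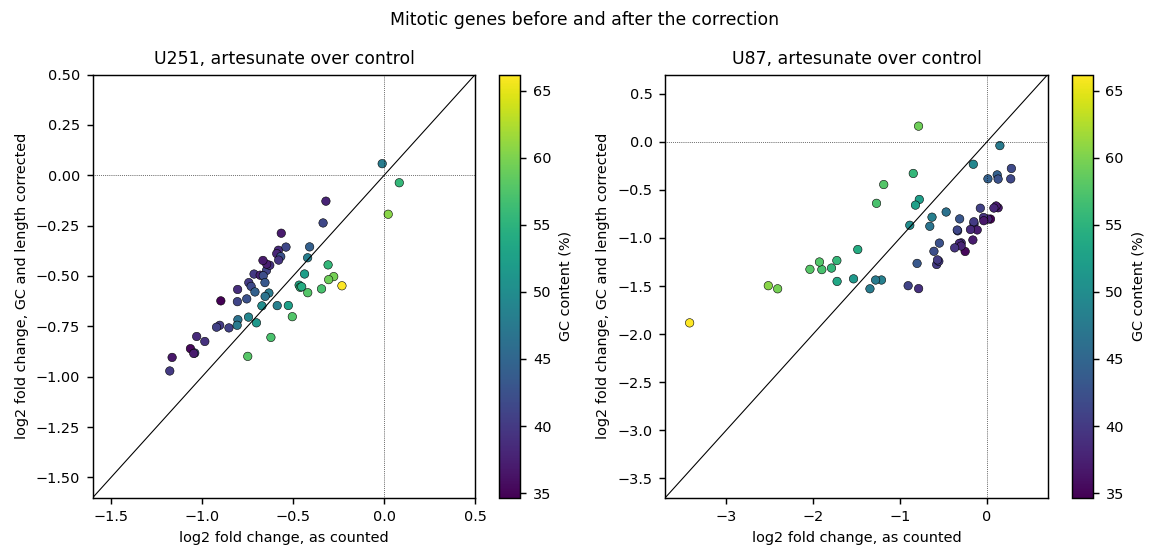
Log2 fold change of each of the 60 genes after the correction for GC content and length (vertical axis) against the value as counted (horizontal axis), in U251 and U87, coloured by GC content; the diagonal marks equal values. In U87 the GC-rich genes move up, PKMYT1 to -1.88 against -3.42 as counted, and the GC-poor genes move down, so that 57 of 60 are called falls.

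The difference of the artesunate effects, U251 minus U87, was tested as an interaction. It was higher for 16 genes and lower for 25 (24.1% and 25.3% of all tested genes), with a median of -0.20. The largest differences were those of PKMYT1 (3.19 ± 0.43, adjusted p = 0.0001), MYBL2 (2.54 ± 0.18, adjusted p = 2.5e-06) and INCENP (2.13 ± 0.27, adjusted p = 7.4e-05), where U87 had the larger fall. HMMR (-1.13 ± 0.13, adjusted p = 3.6e-05), SGO1 (-1.01 ± 0.18, adjusted p = 0.00068) and CDC25C were at the other end, followed by TOP2A (-0.95 ± 0.10, adjusted p = 2.9e-05), and the value in U251 was the lower one. After the GC and length correction the balance turned, to 32 higher and 2 lower (17.1% and 12.6%), with a median of 0.30. MYBL2 (1.30, adjusted p = 4.3e-07), PKMYT1 (1.33, adjusted p = 0.00079), INCENP (1.03, adjusted p = 0.00038), CENPA (1.59, adjusted p = 0.00062) and CDC20 (0.43, adjusted p = 0.0019) kept a larger fall in U87. HMMR (-0.08, adjusted p = 0.62), TOP2A (-0.04, adjusted p = 0.7) and TTK (-0.06, adjusted p = 0.67) no longer differed beyond the test, and PTTG1 (-0.47, adjusted p = 0.0079) and CDC25C (-0.71, adjusted p = 0.013) were the 2 called with the larger fall in U251.

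U251 controls were compared with U87 controls to set the levels before treatment. The mitotic genes were higher in U251 controls for 38 and lower for 8 (32.5% and 32.3% of all tested genes), with a median log2 difference of 0.44. After the GC and length correction 33 were higher and 7 lower (33% and 33.3% of all tested genes), with a median of 0.24. CPM did not overlap for 39 genes with U251 higher and 10 with U251 lower, beside 36.6% and 37% of all tested genes. All 6 checkpoint genes were higher in U251, led by TTK (1.89 ± 0.08, adjusted p = 2.1e-09, 3.69-fold on the fitted scale), and ECT2 had the largest difference of the 60 (1.91 ± 0.12, adjusted p = 4.5e-08, 3.75-fold). Of the 6, 4 were called after the GC and length correction, without BUB3 (0.10, adjusted p = 0.12) and MAD2L1 (-0.15, adjusted p = 0.14), and the MAD2L1 call was also lost without U251 control replicates 1 or 2 or U87 control replicates 2 or 3 (adjusted p up to 0.11). TOP2A averaged 1011 ± 29.1 CPM in U251 controls and 499 ± 38.6 CPM in U87 controls (SD, n = 3 each), a log2 difference of 1.02 ± 0.07 by edgeR (adjusted p = 2e-07). With artesunate it came to 511 ± 11.1 CPM in U251 cells, close to the U87 controls. Lower in U251 were MYBL2 (-0.86 ± 0.13, adjusted p = 7.9e-05), BORA (-0.68 ± 0.10, adjusted p = 0.00012), NCAPD2 (-0.55 ± 0.08, adjusted p = 0.00011), CDC20, GTSE1, PLK1, UBE2C and TPX2. Of these, CDC20, GTSE1, PLK1 and UBE2C were no longer called after the GC and length correction, under which the CDC20 difference turned to 0.09 (adjusted p = 0.18). The call of PLK1 was also lost in 9 of the 12 fits that each left out 1 library, all but those without an artesunate-treated U87 library (adjusted p up to 0.11), and that of UBE2C without U251 control replicate 3 or U87 control replicates 2 or 3 (up to 0.15).

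Beyond the 60 genes, 107 further genes of the pathway, all tested, were counted in 8 lists. In U251 none rose, by edgeR or DESeq2 and with 0 higher at an unadjusted p under 0.05, and 33 fell, beside 4.26% of all tested genes, with a median of -0.29. After the GC and length correction 4 were higher at an unadjusted p under 0.05 with 0 called, and with the replicate block added 1 was called. In U87 31 rose and 41 fell, beside 29.2% of all tested genes in each direction, with a median of -0.16. The GC and length correction turned these to 12 and 65, beside 20.4% called higher and 25.2% called lower. Of 27 other centromere and kinetochore genes 12 fell in U251 (8 after the correction), and in U87 3 rose and 10 fell (2 and 19 after it). The lowest of that list in U87 was CENPB, a binder of centromeric satellite DNA, at -2.48 ± 0.22 (adjusted p = 2.6e-06), with -0.88 after the correction. Of 24 other spindle and centrosome genes 12 fell in U251, led by the centrosome kinase NEK2 (-0.87 ± 0.11, adjusted p = 0.00063). In U87 3 rose and 14 fell (0 and 19 after the correction), with the β-tubulin gene TUBB4B at -3.02 ± 0.14 (adjusted p = 3e-08) and at -2.14 after the correction. Of 7 other checkpoint genes 3 fell in U251, and in U87 3 rose and 3 fell (2 and 3 after the correction), with a median of 0.27 there as counted. The largest called fall of that list in both lines was that of TRIP13, a remodeller of MAD2. It fell by 0.57 ± 0.09 in U251 (adjusted p = 0.0021) and by 0.81 ± 0.09 in U87 (adjusted p = 1e-05).

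Counts in the remaining lists stand beside the same shares of all genes. Of 15 other subunits of the anaphase-promoting complex 1 fell in U251, ANAPC4 (-0.41 ± 0.10, adjusted p = 0.036, but not called after the correction, at -0.17 with an adjusted p of 0.15), and in U87 7 rose and 4 fell (5 and 8 after the correction). Of 10 cohesin genes 1 fell in U251, RAD21 (-0.34 ± 0.07, adjusted p = 0.014), and in U87 6 rose and 2 fell (1 and 5 after the correction). NIPBL, the cohesin loader, rose by 1.37 ± 0.10 in U87 (adjusted p = 6e-07) and by 0.60 after the correction, while CDCA5, sororin, fell by 1.31 ± 0.10 (adjusted p = 7.5e-07). Of 11 DREAM and MuvB genes 1 fell in U251, RBL1 (-0.53 ± 0.11, adjusted p = 0.014), and in U87 5 rose and 3 fell (1 and 4 after the correction). RBL2, the p130 pocket protein of the repressive form, rose in U87 by 0.95 ± 0.08 (adjusted p = 1.6e-06), and by 0.45 after the correction (adjusted p = 0.00017). Of 10 mitotic phosphatase genes 1 fell in U251, MASTL, and in U87 4 rose and 2 fell (1 and 4 after the correction), and of 3 other condensin genes 2 fell in U251 and 3 fell in U87.

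Some counts can hold reads of a neighbour or copy, since strand use in the counting is not given in the sources used here. UBE2S shares sequence with UBE2SP1 and UBE2SP2, which averaged 67.4 and 17.6 CPM over all libraries beside 223 CPM for UBE2S, and it overlaps RPL28 on the opposite strand. BORA overlaps DIS3, CDC25C overlaps FAM53C and PKMYT1 overlaps PAQR4, each on opposite strands. CENPA overlaps SLC35F6 (50.7 CPM) on the same strand. Values of these 5 genes, and those of SPC24, are uncertain to that extent, and FOXM1, CCNA2, NCAPD2, NCAPG and SMC4 are among those that overlap a less abundant gene on the opposite strand.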

How the data were processed

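RNA-seq was measured in 12 libraries, 3 in each of 4 groups. Per the series' design text, the authors used fastp for cleaning, HISAT2 2.1.0 for alignment to GRCh38, StringTie 1.3.3b for quantification and edgeR 3.30.3 for testing. Per the file headers, the deposited table holds gene counts that the authors did not normalise, and FPKM that they computed after TMM normalisation. The authors' own comparison columns were not used here.

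The analysis used R 4.3.3, edgeR 4.0.16 and limma 3.58.1. filterByExpr (minimum count 10, minimum total 15) kept 17150 genes. With TMM factors, edgeR's quasi-likelihood model took 1 mean per group over the 12 libraries together, at a common coefficient of biological variation of 0.183, and was tested on simulated data. Contrasts were artesunate against control per line, their interaction (U251 minus U87), and U251 against U87 controls. The quasi-likelihood p-values were adjusted by Benjamini-Hochberg over all tested genes, and each standard error divides the fold change on the log2 scale by the root of the F value. Deposited FPKM served to compare levels between genes and, as log2(FPKM + 1), for an alternative in limma.

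GC content and length come from the longest GENCODE 29 transcript, found for 99.6% of tested genes and all 60 members. The GC and length correction took each gene's log2 level minus its mean over the 12 libraries. Per library, it removed a smooth trend (splines with 5 degrees of freedom) of these deviations on GC content and length. Any treatment or line difference that followed GC content or length would be removed as well. Library totals put 3 counts at 0.168 to 0.219 CPM, covering counting error only, and every member lay above this in every library.

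Every member may be named with its fold change and p. Values of each library are given mainly for genes taken from a list of 28 and from the called extremes of each role group in each line. Not every such gene has them for both lines. Genes named from the 8 further lists are the called genes with the largest rise or the largest fall of their list in a line. Not all of these are reported here. Members and lists were chosen with earlier results of these data known. Alternatives were DESeq2 1.42.0, its size factors, library totals, no filter, limma on FPKM, fits of 1 line, the GC and length correction, a replicate block, and leaving out each library.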

Additional observations from a re-analysis of the deposited data

Results flagged for a closer look

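The artesunate effect differed between the lines for 41 of the 60 genes, by the interaction test of edgeR, and each is given as the log2 fold change in U251 minus that in U87. Of all tested genes, 24.1% were called higher and 25.3% lower by the same test, so such differences were common among all genes. Line and dose cannot be told apart in these differences.

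The difference was positive, with the lower value in U87, for PKMYT1 (3.19), MYBL2 (2.54), INCENP (2.13), UBE2S (1.81), ESPL1 (1.56), CCNF (1.42), CENPA (1.34), AURKB (1.33), CDC20 (1.29), SPC24 (1.26), GTSE1 (1.03), CDCA8 (0.83), TACC3 (0.77), NCAPH (0.65), PLK1 (0.65) and FOXM1 (0.54). It was negative, with the lower value in U251, for HMMR (-1.13), SGO1 (-1.01), CDC25C (-0.96), TOP2A (-0.95), SGO2 (-0.94), ASPM (-0.88), TTK (-0.84), DLGAP5 (-0.84), CENPE (-0.81), CCNB1 (-0.73), CCNB2 (-0.72), CENPF (-0.70), NUSAP1 (-0.70), CDK1 (-0.69), SMC2 (-0.69), ECT2 (-0.67), SPDL1 (-0.61), BUB3 (-0.61, with a rise in U87 as counted), NDC80 (-0.59), PTTG1 (-0.59), SMC4 (-0.53), CKAP5 (-0.53), NUF2 (-0.51), BORA (-0.47) and ANLN (-0.35).

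After the correction for GC content and length, 14 of the 41 differences kept their direction and their call, those of PKMYT1, MYBL2, INCENP, UBE2S, ESPL1, CCNF, CENPA, AURKB, CDC20, GTSE1, CDCA8, NCAPH, CDC25C and PTTG1. Those of ANLN, NUF2, NDC80, SMC2, SMC4, CDK1, ECT2 and SPDL1 were called in the other direction. Of all tested genes, 17.1% were called higher and 12.6% lower in the corrected difference. The remaining 19 were not called, SPC24 among them with an adjusted p of 0.057 by edgeR. The call for ANLN was also lost without U251 control replicate 1, U87 control replicate 3 or U87 artesunate replicate 3 (adjusted p up to 0.065), and that for BORA without control replicate 2 of either line (adjusted p up to 0.055).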

How the results depend on the processing

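The number of genes that fell in U251 was 39 to 51 over all alternatives, none rose in any, and the median lay between -0.68 and -0.56. In U87 36 to 57 fell. Over the fits that left out 1 library, 0 to 2 rose in U87. Corrected for GC content and length, the medians were -0.56 in U251 and -0.92 in U87, 57 genes fell and 0 rose in U87, and the difference between the lines was higher for 32, lower for 2 and 0.30 at the median. No gene rose in U87 with no filter on low counts or in the fit of the 6 libraries of that line. The median of the controls, 0.44 as reported, was 0.40 with no filter, 0.40 in limma on log2(FPKM + 1) with or without a filter, and 0.24 after the GC and length correction. The cause of these shifts was not tested. A group of 3 libraries limits the precision throughout.

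Same-numbered artesunate and control libraries deviated together only weakly, with r between -0.00857 and 0.0533, and not every sample correlated best with its own number. Weak correlations of this kind cannot exclude that the replicate numbers pair the samples. With the replicate block 45 genes fell in U251, 38 fell and 1 rose in U87, the difference was higher for 16 and lower for 26, and the controls were higher for 32 and lower for 5. The replicate block together with the GC and length correction gave medians of -0.56 in U251, -0.92 in U87, 0.30 for the difference and 0.32 for the controls, with 0 genes that rose in U87 and a difference that was higher for 30 and lower for 2.

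Over the 60 genes, the GC and length correction changed the sign of the log2 fold change for 3 in U251, 12 in U87, 28 in the difference and 13 between the controls. Genes other than BUB3, CDK1 and CKAP5 that changed sign in U87 were SGO1, SGO2, SMC2, CCNB2, CDC25B, CDC25C, CKAP2, ECT2 and NUSAP1. For the 41 genes followed under every alternative, values of changed sign, with or without the block, were in U251 CENPA 0.057 (0.049 with the block), MYBL2 -0.19 and UBE2S -0.037 (-0.035 with the block), and in U87 BUB3 -0.39, CDK1 -0.69 (-0.68 with the block) and CKAP5 -0.34. For the difference of the effects they were ANLN 0.50, ASPM 0.14 (0.13 with the block), AURKA 0.013 (without the block), BUB1 0.44, BUB3 0.15, CDK1 0.40, CENPE 0.28 (0.27 with the block), CENPF 0.094 (0.093 with the block), CEP55 0.56, FOXM1 -0.12 (-0.11 with the block), NDC80 0.30, NUF2 0.48, PLK1 -0.17 (-0.16 with the block), SMC4 0.48 (0.47 with the block), SPDL1 0.26 (0.25 with the block) and WEE1 0.95. Between the controls they were BIRC5 0.22 (0.037 with the block), CDC20 0.088 (0.10 with the block), CENPE -0.24 (-0.36 with the block), FOXM1 0.12 (0.14 with the block), HMMR -0.17 (-0.14 with the block), INCENP 0.032 (0.073 with the block), NCAPH 0.011, WEE1 -0.087 and, with the block, AURKA 0.24 and UBE2C 0.047. AURKA between the controls was 0.19 with the replicate block alone.

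Values near 0 changed sign elsewhere. MYBL2 in U251 was -0.013 with library totals only, -0.014 and -0.015 in limma on log2(FPKM + 1) and log2(FPKM + 0.1), and -0.014 with no filter in limma. CENPA in U251 was 0.014 with no filter on low counts, and the difference for WEE1 was 0.013 with library totals only, 0.049 with no filter and 0.0098 in limma on log2(FPKM + 0.1). Over the fits without 1 library, log2 fold changes ran from -0.081 to 0.11 for CENPA and from -0.023 to 0.083 for MYBL2 in U251, from -0.13 to 0.0082 for HMMR, from -0.22 to 0.037 for SMC4 and from -0.10 to 0.023 for TOP2A in U87, from -0.046 to 0.055 for TPX2 and from -0.13 to 0.12 for WEE1 in the difference, and from -0.28 to 0.14 for AURKA, from -0.14 to 0.0050 for BIRC5, from -0.012 to 0.60 for MKI67 and from -0.034 to 0.13 for PKMYT1 between the controls.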
